A study of Mus musculus with 24 samples.

Results

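The immediate early AP-1 and Egr genes were followed in adherent cultures from the aorta-gonad-mesonephros (AGM) of the mouse embryo, the region around the dorsal aorta where blood stem cells first emerge. The set held 10 genes listed by symbol: Fos, Fosb, Fosl1, Jun, Junb, Jund, Egr1, Egr2, Ier2 and Ier3. A probe belonged to a gene if the array's annotation gave it that symbol, and the brightest detected probe stood for the gene. Probes were listed for 9 of the 10 genes, all 9 passed the filter on dim probes, and they stand among 12226 genes tested. Fosl1 has no listed probe and was not analysed here. Only Junb had a second probe, which was detected on 1 of 24 arrays and was not used.

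The cells came from embryonic day 10.5 AGM regions of the C57BL/6J strain, and those that attached in microfluidic channels were cultured for 6 h or 36 h. The groups differed by flow, drug and time. Flow set the wall shear stress (WSS) at 5 dyne/cm2, against 0.0001 dyne/cm2 in nearly still medium (static), and the medium held 10 uM indomethacin, an inhibitor of the cyclooxygenases that make prostaglandins, or vehicle. All 8 combinations were measured on 3 Illumina bead arrays each: WSS and static with indomethacin at 36 h, WSS and static with vehicle at 36 h, and the same 4 conditions at 6 h. All groups share the strain, the stage and the loss of non-adherent cells before harvest. Each sample pooled 6 channels, and nothing in the labels ties the 3 samples of each group to distinct cultures or litters. All p-values here thus reflect sample-to-sample spread alone, part of which may be technical.

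Immediate early genes are transcribed within minutes of a stimulus, without new protein synthesis, mostly after MAP kinase signals reach factors already bound at their promoters. Fos and Jun proteins pair into AP-1, a transcription factor that binds the TGANTCA motif, and the pairing of family members sets its activity. Egr1 and Egr2 are zinc finger factors that bind GC-rich motifs, and Ier2 and Ier3 encode small proteins induced with them. In endothelial cells, the onset of shear stress is known to induce Fos, Jun and Egr1 briefly. Their messages are short-lived and also rise with serum, cell dissociation and handling. The first measurement here was made after 6 h of culture, so an earlier transient rise could not be seen.

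Promoter sequences are printed for 4 members because these genes read lower on every WSS array than on any static array after 6 h in vehicle, and carry elements through which such stimuli are known to act. They come from RefSeq on assembly GRCm38.p6 and run from 250 bases before to 50 bases after the annotated start. Of the 9 measured members 7 matched the table; Egr1 and Ier2 did not. Capitals mark the cyclic AMP response element core TGACG (or CGTCA, its other strand), the CArG box bound by serum response factor, the Egr motif GCGNGGGCG and the TATA box TATAAA.
Fos, chr12:85473640-85473939, plus strand: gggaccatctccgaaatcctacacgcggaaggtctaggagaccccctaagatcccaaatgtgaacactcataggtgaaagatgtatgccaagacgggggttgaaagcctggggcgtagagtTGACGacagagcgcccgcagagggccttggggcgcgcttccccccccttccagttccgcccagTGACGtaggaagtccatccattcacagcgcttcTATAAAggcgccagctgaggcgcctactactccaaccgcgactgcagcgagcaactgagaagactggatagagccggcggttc
Fosb, chr7:19309996-19310295, minus strand: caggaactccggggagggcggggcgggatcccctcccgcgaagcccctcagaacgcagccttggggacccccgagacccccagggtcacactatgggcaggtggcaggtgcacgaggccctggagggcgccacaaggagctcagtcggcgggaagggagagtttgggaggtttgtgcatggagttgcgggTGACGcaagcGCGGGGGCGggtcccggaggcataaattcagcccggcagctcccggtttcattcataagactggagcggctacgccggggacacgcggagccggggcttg
Junb, chr8:84978699-84978998, minus strand: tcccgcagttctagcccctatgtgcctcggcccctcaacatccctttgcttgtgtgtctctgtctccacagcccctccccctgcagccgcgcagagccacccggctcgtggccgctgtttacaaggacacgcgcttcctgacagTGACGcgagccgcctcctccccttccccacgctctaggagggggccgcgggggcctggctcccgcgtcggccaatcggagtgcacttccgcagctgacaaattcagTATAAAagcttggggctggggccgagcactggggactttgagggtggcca
Egr2, chr10:67537619-67537918, plus strand: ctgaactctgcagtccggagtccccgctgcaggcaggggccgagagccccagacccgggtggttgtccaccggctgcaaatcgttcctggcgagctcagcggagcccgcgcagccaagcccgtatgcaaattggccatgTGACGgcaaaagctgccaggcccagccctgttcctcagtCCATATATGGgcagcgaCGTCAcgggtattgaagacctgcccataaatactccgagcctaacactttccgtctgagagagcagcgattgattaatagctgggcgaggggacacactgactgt
These windows were chosen in part for the elements they carry, so the counts describe them and nothing is read from them. The TGACG core stood in all 4 printed windows, which makes 4 of the 7 members with a window. Jun and Ier3, which also read lower on every WSS array after 6 h in vehicle, did not hold it, nor did Jund. Of the 27025 genes listed, 23% held it on either strand. The table lists 5 windows for Egr2, of which 1 is printed. The 2 that start farthest upstream, at positions 67535249 and 67537316 of chromosome 10, hold no TGACG, and the first of these holds no CArG box either. In Fos the TGACG core began at bases 122 and 185 of the window, and the TATA box followed at base 218. Egr2 held a CArG box at bases 179 to 188, as did 1.81% of genes. Fosb held an Egr motif at bases 201 to 209, as did 6.27% of genes, and Fos and Junb a TATAAA, as did 15.7%. The TATAAA of Junb stood at bases 251 to 256, so it begins at the annotated start and not upstream of it as in Fos. Neither the full element TGACGTCA (2.03% of genes) nor the AP-1 motif TGANTCA (8.97%) was in the window of any of the 7 members, on either strand. A match describes letters in this window and is not evidence of binding.

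Signals were corrected for background and quantile normalised, and values are given as normalised log2 signal unless stated otherwise. Levels of different genes are not compared, since each probe has its own brightness. Arrays of 1 group correlated at r = 0.98 to 0.993 and arrays of different groups at 0.928 to 0.992 over the 12226 genes tested. Mean signal before normalisation was higher in every WSS group than in its static counterpart, at 566.5 against 424.3 in vehicle at 6 h. Of the markers of the region, Runx1, Kit, Gata2, Cdh5 and Kdr were among the genes tested, whereas Ptprc, Myb, Spi1, Tie1, Pax2 and Gata4 did not pass the detection filter. The WSS indomethacin array 2 at 6 h stood apart: 7 erythroid genes summed to 9630 on a linear scale there, against 108100 and 116400 on the other arrays of its group. The members' flow results at 6 h with indomethacin are given with and without it. Without it the number of members called was the same as with it in the other comparisons that used this array. Genes of the response to low oxygen moved with flow throughout: 9 of 9 tested hypoxia genes were lower in WSS than in static culture in each of the 4 flow comparisons, with medians (log2) of -3 with indomethacin and -2.39 with vehicle at 36 h, and of -2.53 with indomethacin and -2.72 with vehicle at 6 h. Their part in the results below was not tested.

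The first question was what flow did to these genes after 6 h in vehicle. In WSS culture 6 of the 9 measured members were lower than in static culture, against 14.3% of all genes called lower at an adjusted p under 0.05 in limma. No member was higher, against 15.1% of all genes. The members' median change was -1.03 on the log2 scale, and the median over all genes was 0.01. All 3 WSS arrays lay below all 3 static arrays for 7 members, against 22.6% of all genes. The 6 that passed were Fos, Jun, Junb, Egr1, Egr2 and Ier3. The members were chosen with earlier results of these data known, so these counts describe the set and do not test it.

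Of the Fos family, Fos read 10.10, 9.88 and 9.79 on the WSS arrays, against 11.56, 11.11 and 11.35 on the static arrays. The groups were well apart, and Fos was 2.68-fold lower in WSS culture (log2 change -1.42 ± 0.32, SE, adjusted p = 0.002). Fosb, a close relative that forms AP-1 with the same Jun partners, read 6.15, 5.56 and 6.02 in WSS and 7.02, 7.14 and 6.66 in static culture. These groups did not overlap either, but the change of -1.03 ± 0.42 missed the threshold (adjusted p = 0.069; 0.048 with the authors' processed values).

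The Jun family was split. Junb, which can damp the activity of Jun in AP-1, read 8.36, 8.45 and 8.43 in WSS and 9.06, 9.17 and 9.38 in static culture, a tight separation, with a change of -0.79 ± 0.14 (adjusted p = 0.00031). Jun read 9.20, 9.13 and 9.11 in WSS and 9.56, 9.59 and 9.62 in static culture. The change was small, at -0.44 ± 0.15, yet larger than the spread (adjusted p = 0.035). Jund, the family member known for steady expression, read 7.71, 7.41 and 7.82 in WSS and 7.71, 7.51 and 7.75 in static culture. Its groups overlapped, and the interval of the difference ran from -0.33 to 0.30, short of the -0.79 of Junb. The call for Jun was lost when any 1 of the 6 arrays was left out (adjusted p = 0.062 to 0.092).

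Both Egr genes were lower with flow. Egr1 read 12.60, 12.30 and 12.39 on WSS arrays and 13.86, 13.45 and 13.50 on static arrays, and was 2.26-fold lower (-1.17 ± 0.25, adjusted p = 0.0013). Egr2, best known from hindbrain patterning and myelination, read 7.22, 6.44 and 6.67 in WSS and 8.27, 7.67 and 8.01 in static culture (-1.21 ± 0.29, adjusted p = 0.0033). Neither gene's arrays overlapped between the groups.

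Ier3, which encodes a stress-inducible protein linked to cell survival, showed the largest change of the set. It read 9.75, 9.51 and 9.61 in WSS, against 11.21, 11.11 and 11.56 in static culture, and was 3.18-fold lower (-1.67 ± 0.27, adjusted p = 0.00012). Ier2 was dim, at a mean raw signal of 123.7 over all arrays. Its values of 6.36, 5.72 and 5.83 in WSS and 6.62, 6.85 and 6.24 in static culture overlapped, and the change of -0.60 did not pass (adjusted p = 0.16).

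**Figure D1:**
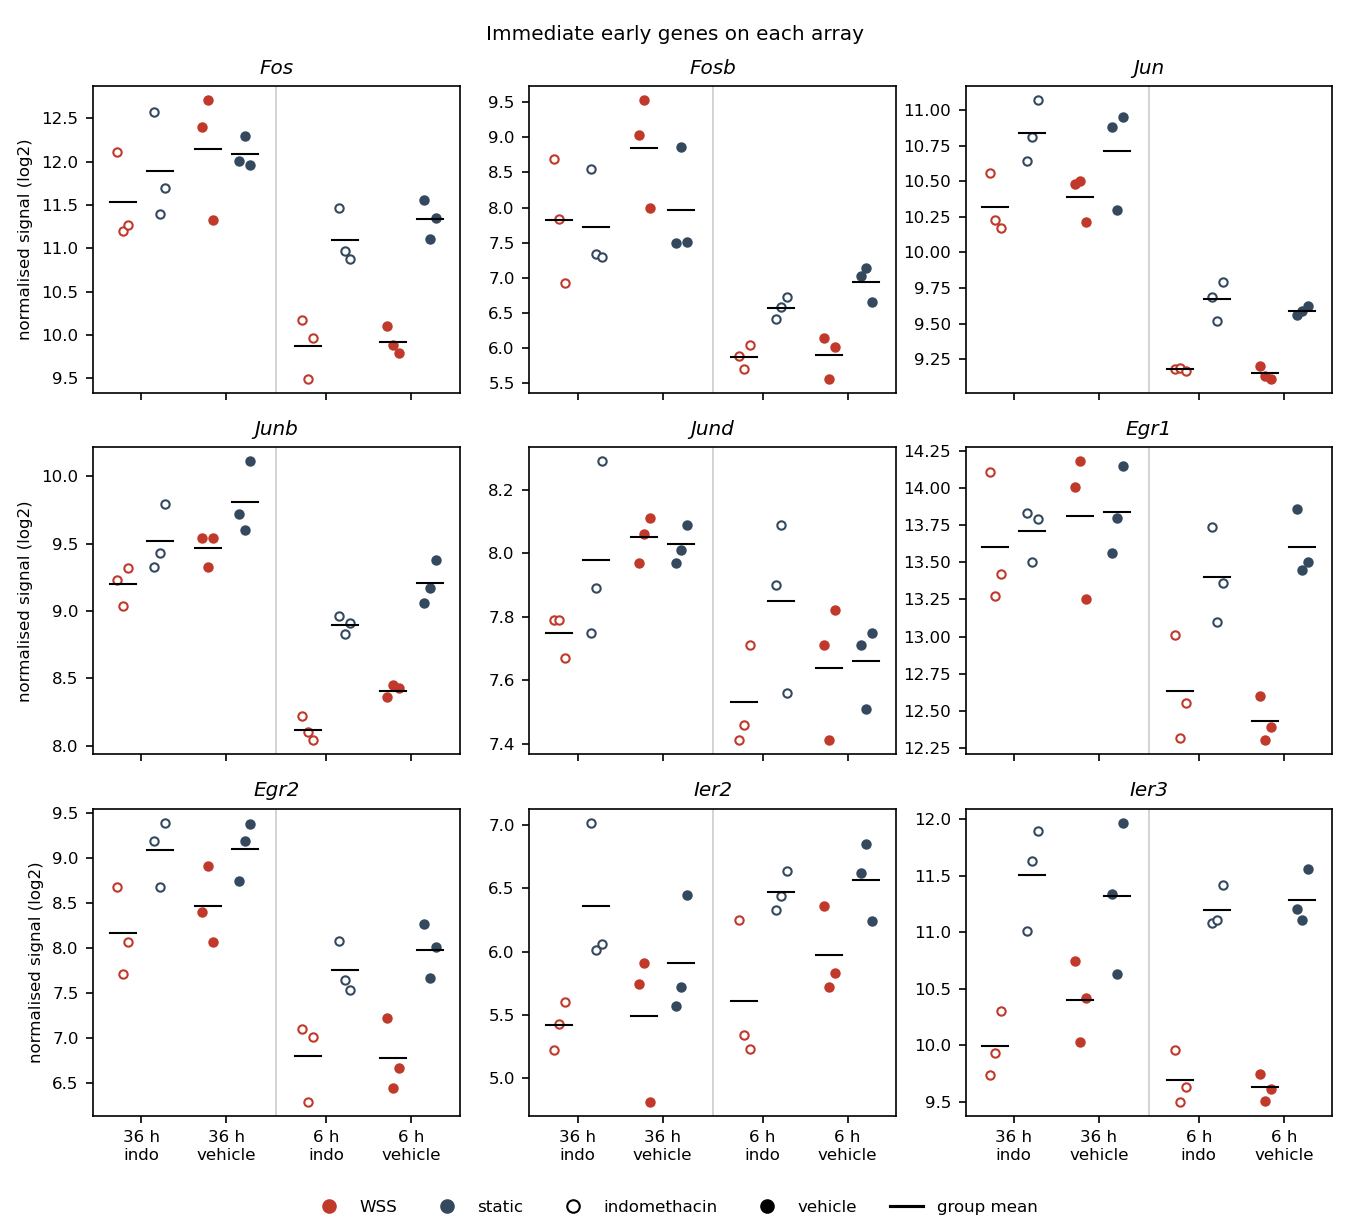
Normalised log2 signal of the 9 measured genes on each of 24 arrays, 1 panel per gene with its own vertical axis. Points are arrays, red for WSS and dark blue for static, open for indomethacin and filled for vehicle, and bars are group means; at 6 h the red points lie below the blue ones for Fos, Fosb, Jun, Junb, Egr1, Egr2 and Ier3 in both drug states.

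How the arrays were scaled bore on the size of these changes. Where arrays were scaled to the median of all probes, most of which are undetected, the median change of all genes was 0.24, and without scaling between arrays it was 0.36. These settings differ only by a constant for each array, so a change measured from the median is the same in both by construction. That equality is no sign of stability. Measured so, Fos changed by -1.25, Junb by -0.69, Egr1 by -0.93 and Ier3 by -1.51. Jun changed by -0.34 relative to the median, although its unscaled change of 0.02 had the opposite sign. On the unscaled values themselves Fos was at -0.89 (adjusted p = 0.051), Junb at -0.33 (0.17) and Egr1 at -0.57 (0.099), so that 2 members passed, Egr2 (-0.84, 0.044) and Ier3 (-1.15, 9e-04). Scaling to the median of probes detected on all arrays gave -1.33 for Fos, -0.76 for Junb and -1.01 for Egr1, all past the threshold, and Fosb then passed too (-1.22, adjusted p = 0.032). Of all genes called in this comparison 51.2% were higher in WSS with quantile normalisation, 82.3% with median scaling over all probes, 89.9% with no scaling and 41.1% with the detected probes.

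**Figure D2:**
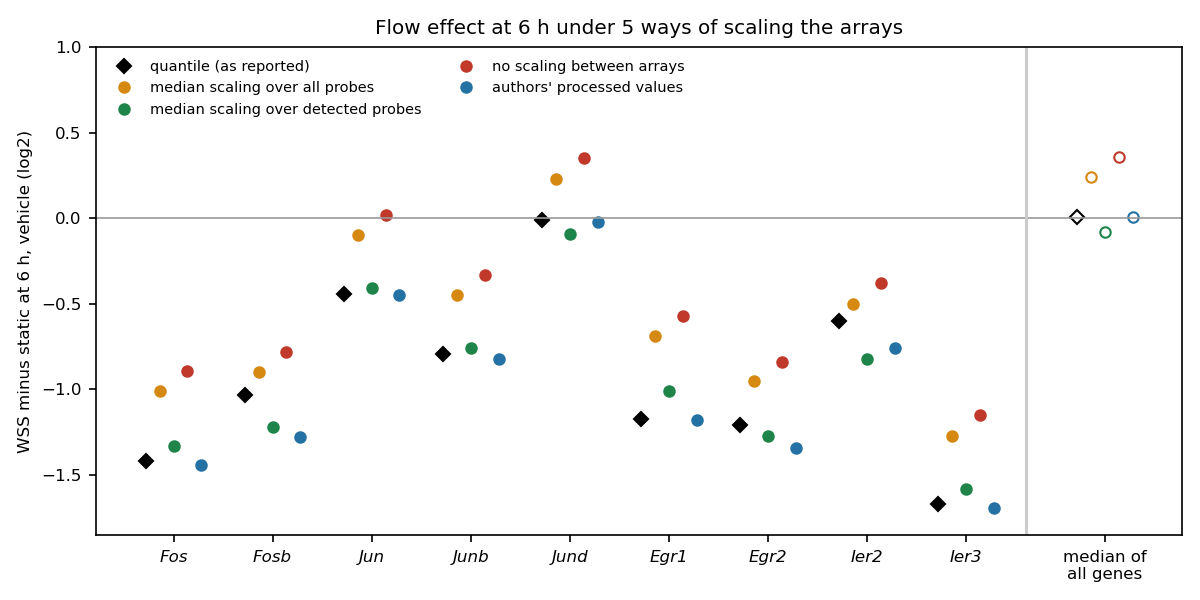
Change in log2 signal, WSS minus static in vehicle at 6 h, for each gene under 5 ways of scaling the arrays, with the median over all genes at the right (open symbols). Median scaling over all probes and no scaling lift every member and the median of all genes together, to 0.24 and 0.36 for that median, and Jun and Jund cross 0 while Fos, Fosb, Junb, Egr1, Egr2, Ier2 and Ier3 stay below it under all 5.

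Some marker genes of cell types moved along with this comparison. Macrophage markers summed to 338.7 to 619.6 on the WSS arrays and 159.5 to 216 on the static arrays (linear signal), with 3 of 6 tested genes higher. Urogenital markers summed to 1612 to 1701 in WSS and 2646 to 2961 in static culture, with 2 of 3 lower, and mesenchymal markers to 2384 to 2517 in WSS and 3165 to 3467 in static culture, with 3 of 7 lower. Of 5 blood progenitor markers 2 were higher and 1 lower, with sums of 429.9 to 520.5 in WSS and 363.4 to 437.5 in static culture. Of all genes 15.1% were called higher and 14.3% lower. None of 7 endothelial markers passed, while Fcgr1, Mrc1 and Tie1 did not pass the detection filter. The part of these cells in the members' changes was not tested. In pooled cells like these, fewer cells of a type and less RNA per cell cannot be told apart.

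At 36 h in vehicle only Ier3 passed, as lower in WSS culture (1 of 9 members, against 4.72% of all genes called lower), and the median change of the members was -0.32. Ier3 read 10.75, 10.03 and 10.42 on WSS arrays and 11.34, 10.63 and 11.97 on static arrays, so the groups overlapped slightly (-0.92 ± 0.27, adjusted p = 0.034). That call was lost without WSS array 2 (adjusted p = 0.14) or 3 (0.07), or without static array 1 (0.093) or 3, where the change was -0.59 (0.19).

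Fos read 12.40, 12.71 and 11.32 in WSS and 12.01, 12.30 and 11.96 in static culture at 36 h. The groups overlapped fully and the change was 0.05, with an interval of -0.60 to 0.71. Egr1 read 14.01, 14.18 and 13.25 in WSS and 13.56, 13.80 and 14.15 in static culture, again overlapping, with a change of -0.03 and an interval of -0.54 to 0.49. Both intervals exclude a difference as large as that measured at 6 h.

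The change of Fosb had the opposite sign at 36 h. It read 9.03, 9.53 and 7.99 in WSS and 7.50, 8.86 and 7.51 in static culture, and its change of 0.89 ± 0.42 did not pass (adjusted p = 0.2). Without static array 2, the highest of its group, the change was 1.34 and passed (adjusted p = 0.047), and Jun then passed as lower (-0.52, adjusted p = 0.023; with all arrays -0.32, 0.21). Junb at 9.54, 9.33 and 9.54 in WSS and 9.72, 9.60 and 10.11 in static culture did not overlap, the only such member, against 10.1% of all genes, and its change of -0.34 missed the threshold (adjusted p = 0.14). With no scaling between arrays Jun was at 0.03 and Junb at 0.02. Egr2 (-0.65, adjusted p = 0.17), Ier2 (-0.42, 0.44) and Jund (0.02, 0.95) did not pass. The WSS vehicle array 3 at 36 h was the lowest of its group for 6 of the 9 members. Of all genes called at 36 h in vehicle 49.7% were higher in WSS, against 87.1% with median scaling over all probes, 92% with no scaling, 36.4% with the detected probes and 31.7% when only these 6 arrays were fitted. Neural markers moved here too, with 4 of 5 higher and sums of 4425 to 5516 in WSS and 1927 to 2546 in static culture. Mesenchymal markers summed to 3370 to 4454 in WSS and 6587 to 7168 in static culture, with 3 of 7 lower, and blood progenitor markers to 499.8 to 645.8 in WSS and 370.6 to 485.3 in static culture, with 2 of 5 higher. Of 7 endothelial markers 1 was lower. Of all genes 4.66% were called higher and 4.72% lower. The part of these cell types was not tested.

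Whether the flow effect differed between the times was tested directly, as the effect at 36 h minus the effect at 6 h. In vehicle 3 members passed, all with a positive difference, against 6.33% of all genes: Fosb by 1.92 ± 0.59 (adjusted p = 0.039), Fos by 1.47 ± 0.45 (0.036) and Egr1 by 1.15 ± 0.35 (0.037). Their WSS arrays overlapped the static arrays at 36 h and all lay below them at 6 h. Junb differed by 0.45 (adjusted p = 0.14), Ier3 by 0.75 (0.2), Egr2 by 0.56 (0.39) and Ier2 by 0.17 (0.84), none of which passed. For Jun and Jund the differences were 0.12 (interval -0.33 to 0.57) and 0.04 (-0.41 to 0.48). The calls in vehicle alone were fragile. Without 1 array Fos kept its call in 3 of 12 fits, Fosb in 2 and Egr1 in 3, with adjusted p up to 0.10, 0.11 and 0.10, and the lost differences were 1.19 to 1.56, 1.58 to 2.06 and 0.96 to 1.23. The call was kept in Fos without array 2 of static culture at 6 h or 36 h or WSS array 3 at 36 h, in Fosb without the last 2 of these arrays, and in Egr1 without static array 2 at 6 h, static array 3 at 36 h or WSS array 3 at 36 h. Without static array 3 at 36 h, Ier3 (1.08, adjusted p = 0.049) and Junb (0.60, 0.048) passed. With arrays scaled to the detected probes Fosb alone passed (2.10, adjusted p = 0.028), with Fos at 1.31 (0.056) and Egr1 at 0.83 (0.088).

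Over both drug states together, with all 24 arrays in the contrast, 4 members had a positive difference, against 11.8% of all genes. These were Fosb at 1.35 ± 0.42 (adjusted p = 0.024), Fos at 1.17 ± 0.32 (0.011), Egr1 at 0.90 ± 0.25 (0.012) and Junb at 0.46 ± 0.14 (0.024). All 4 kept their calls when any 1 array was left out. With arrays scaled to the median of all probes, the median of all genes was -0.12, and Fos, Fosb, Egr1 and Junb differed from it by 1.00, 1.52, 0.56 and 0.42, but of the 4 only Fosb passed on that scale (1.40, adjusted p = 0.031). With the detected probes Fos, Fosb and Junb passed and Egr1 did not (0.57, adjusted p = 0.063). Of all genes called, 50.4% had a positive difference with quantile normalisation, 29.9% with median scaling over all probes and 26.1% with no scaling. Ier3 (0.37, adjusted p = 0.33), Egr2 (0.29, 0.49), Jund (0.07, 0.79), Jun (0.05, 0.85) and Ier2 (0.05, 0.93) did not pass. With indomethacin alone none passed in limma, against 2.91% of all genes called in either direction. Junb alone, at 0.46 (adjusted p = 0.2), had an unadjusted p under 0.05, as did 20.2% of all genes. Fos was at 0.87 (adjusted p = 0.28) and Egr1 at 0.66 (0.3) there. With indomethacin 48.3% of the calls over all genes were positive, against 15.8% with median scaling over all probes, 13.9% with no scaling and 58.9% with the detected probes.

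**Figure D3:**
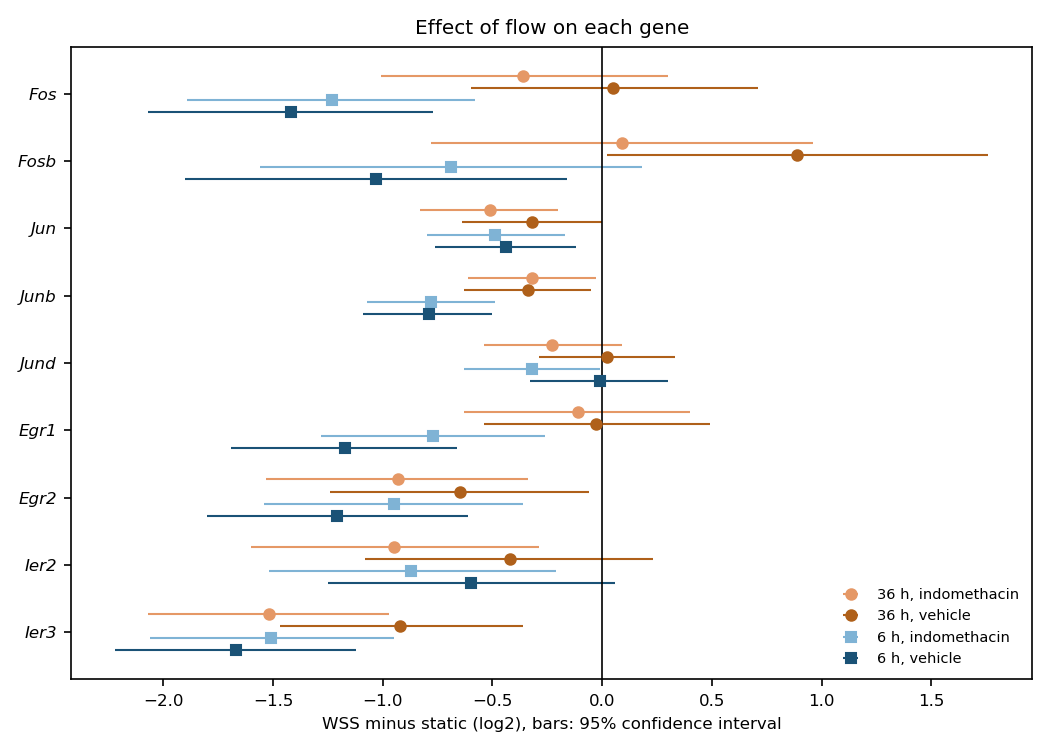
Effect of flow on each gene, WSS minus static in log2 signal, with 95% confidence intervals, at 36 h (circles) and 6 h (squares), in indomethacin (light) and vehicle (dark). In vehicle the effect was 0.05 at 36 h and -1.42 at 6 h for Fos, 0.89 and -1.03 for Fosb, -0.03 and -1.17 for Egr1, and -0.92 and -1.67 for Ier3.

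The same flow comparison was made under indomethacin. At 6 h 6 members were lower in WSS than in static culture, against 8.34% of all genes, and arrays did not overlap for 8 of 9, against 17.2%. All 6 were also lower in vehicle, but how many of all genes passed in both drug states was not counted. Nothing is read from that overlap. Ier3 read 9.96, 9.50 and 9.63 in WSS and 11.08, 11.11 and 11.42 in static culture (-1.51 ± 0.27, adjusted p = 0.00061). Junb read 8.22, 8.10 and 8.04 in WSS and 8.96, 8.83 and 8.91 in static culture, again fully apart (-0.78 ± 0.14, adjusted p = 0.00075).

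Fos read 10.17, 9.49 and 9.97 in WSS and 11.46, 10.97 and 10.88 in static culture (-1.23 ± 0.32, adjusted p = 0.01), and Egr1 read 13.01, 12.32 and 12.55 against 13.74, 13.10 and 13.36 (-0.77 ± 0.25, adjusted p = 0.035). Both genes were lower on every WSS array than on any static one. Egr2 changed by -0.95 (adjusted p = 0.025) and Jun by -0.49 (0.031), while Ier2 (-0.87, 0.061), Fosb (-0.69, 0.28) and Jund (-0.32, 0.15) did not pass. Without the WSS array that was low in erythroid genes, 2 of 9 members passed, Junb and Ier3, and Fos was at -1.04 (adjusted p = 0.062), Egr1 at -0.62 (0.16), Egr2 at -0.69 (0.15) and Jun at -0.49 (0.08). Without static array 1 the same 4 were lost, at -1.05 (0.061), -0.60 (0.17), -0.79 (0.12) and -0.47 (0.092). Jun was also lost without WSS array 1 (0.071) or 3 (0.085) or static array 3 (0.096), and Egr1 without WSS array 3 (0.10) or static array 3 (0.061). Junb and Ier3 kept their calls whichever of these arrays was left out. Among all called genes 53.1% were higher in WSS, against 88.9% with median scaling over all probes, 92.1% with no scaling and 40.8% with the detected probes. Without WSS array 1 Ier2 passed (-1.19, 0.019), and without static array 3 Jund passed (-0.47, 0.044).

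The calls at 6 h with indomethacin also depended on the scaling. With median scaling over all probes only Ier3 passed (-1.07, adjusted p = 0.0026), with Fos at -0.79 (0.069), Junb at -0.40 (0.05), Egr2 at -0.70 (0.071), Egr1 at -0.30 (0.35) and Jun at -0.09 (0.75). Ier3 was also the only member to pass with no scaling (adjusted p = 0.0039), while Ier2 passed with the detected probes (-1.11, 0.016). Cell type markers moved with this comparison as well. Macrophage markers summed to 249.3 to 428.1 in WSS and 123 to 212.9 in static culture, with 3 of 6 higher, and urogenital markers to 1713 to 1754 in WSS and 2422 to 2870 in static culture, with 2 of 3 lower. Of 5 blood progenitor markers 1 was higher. Of all genes 9.45% were called higher and 8.34% lower. The part of these cell types was not tested.

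At 36 h with indomethacin 3 members were lower in WSS, against 5.78% of all genes, and 4 had arrays that did not overlap (Jun, Junb, Ier2 and Ier3), against 13.7%. Ier3 read 9.74, 9.93 and 10.30 in WSS and 11.01, 11.63 and 11.90 in static culture, with no overlap, and was 2.87-fold lower (-1.52 ± 0.27, adjusted p = 0.00078). Jun read 10.56, 10.23 and 10.17 against 10.64, 10.81 and 11.07 (-0.51 ± 0.15, adjusted p = 0.034), and Egr2 8.68, 7.71 and 8.07 against 9.19, 8.68 and 9.39 (-0.93 ± 0.29, 0.039). The arrays of Jun stayed just apart and those of Egr2 touched. Ier3 thus passed as lower with flow in all 4 comparisons, the only member to do so. Jun lost its call without WSS array 2 (0.10) or 3 (0.11) or static array 2 (0.066) or 3 (0.14), and Egr2 lost it without WSS array 2 (0.17) or 3 (0.091), or static array 1 (0.12) or 3 (0.13). Ier3 alone kept its call without any 1 of these arrays. Fos (-0.36, adjusted p = 0.5), Egr1 (-0.11, 0.81) and Fosb (0.09, 0.92) did not pass, nor did Ier2 (-0.95, 0.056), Junb (-0.32, 0.15) and Jund (-0.23, 0.36). The share of all calls that were higher in WSS was 46.6%, against 67% with median scaling over all probes, 68% with no scaling, 37.8% with the detected probes and 35.8% when only these 6 arrays were fitted. With median scaling over all probes Jun was at -0.41 (adjusted p = 0.18) and Egr2 at -0.83 (0.084), and Ier3 alone passed. With the detected probes Ier2 passed too (-1.05, 0.035). Neural markers summed to 3062 to 5324 in WSS and 1858 to 2535 in static culture, with 4 of 5 higher, and mesenchymal markers to 3781 to 4579 in WSS and 6057 to 7825 in static culture, with 3 of 7 lower. Blood progenitor markers summed to 622.8 to 771.8 in WSS and 371 to 441.9 in static culture, with 2 of 5 higher. Of the endothelial markers 1 of 7 was lower. Of all genes 5.05% were called higher and 5.78% lower. The part of these cell types was not tested.

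Indomethacin itself was compared with vehicle within each flow state and time. None of the 9 members passed in limma in any of the 4 comparisons, and of all genes 0% passed at 6 h in either flow state, and 0.00818% in WSS and 0.0491% in static culture at 36 h. At an unadjusted p under 0.05 there was 1 member in each comparison, against 2.92% of all genes in WSS and 6.54% in static culture at 6 h, and 5.71% in WSS and 5.64% in static culture at 36 h. That member was Fosb in WSS culture at 36 h and Junb in the other 3 comparisons. Fosb read 8.69, 7.83 and 6.93 with indomethacin and 9.03, 9.53 and 7.99 with vehicle under WSS at 36 h (-1.03 ± 0.42, adjusted p = 0.86), with overlapping arrays. Junb was lower with the drug by a similar amount each time: -0.29 (adjusted p = 1) in WSS and -0.31 (0.74) in static culture at 6 h, and -0.27 (0.87) in WSS and -0.30 (0.88) in static culture at 36 h. The arrays of Junb lay wholly below in 3 of these 4 comparisons, against 3.88% of all genes in WSS and 7.04% in static culture at 6 h, and 3.9% in WSS culture at 36 h. In static culture at 36 h, where 3.66% of all genes did so, they overlapped. Junb was not alone in this: in WSS culture at 36 h the arrays of Jund also lay wholly below with the drug (-0.30, adjusted p = 0.87). Whether the drug altered the effect of flow was tested as well, and no gene passed at either time (0%) in limma, while 3.98% and 4.18% of all genes and 0 members had an unadjusted p under 0.05 at 6 h and 36 h. Those intervals were wide, from -0.74 to 1.12 for Fos and from -0.32 to 1.13 for Egr1 at 6 h.

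Time in culture was compared next, at 36 h against 6 h. These comparisons share their groups with the flow comparisons, so the values are set beside those above and not added to them. In WSS vehicle culture 8 of 9 members were higher at 36 h, against 18% of all genes. Fosb was 7.7-fold higher (2.94 ± 0.42, adjusted p = 2.1e-05), with the readings of 7.99 to 9.53 at 36 h and 5.56 to 6.15 at 6 h given above. Fos was 4.66-fold higher (2.22 ± 0.32, adjusted p = 2.1e-05). Egr2 (1.68), Egr1 (1.38), Jun (1.25), Junb (1.06), Ier3 (0.78, adjusted p = 0.027) and Jund (0.41, 0.04) also rose. Jund lost its call without WSS array 1 at 6 h (0.054) or array 2 (0.2), or without array 1 (0.055), 2 (0.082) or 3 (0.1) at 36 h. Ier3 lost it without array 2 (0.083) or 3 (0.066) at 6 h, or array 1 (0.13) or 3 (0.061) at 36 h. The other 6 kept theirs without any 1 array. Ier2 was at 5.49 ± 0.59 at 36 h and 5.97 ± 0.34 at 6 h (SD, n = 3 each) and did not pass (adjusted p = 0.24).

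In static vehicle culture 5 members were higher at 36 h, against 26% of all genes: Jun by 1.13 ± 0.15 (adjusted p = 4.1e-06), Egr2 by 1.12 ± 0.29 (0.0026), Fosb by 1.02 ± 0.42 (0.047), Junb by 0.61 ± 0.14 (0.0012) and Jund by 0.37 ± 0.15 (0.045). Fos at 12.09 ± 0.19 and 11.34 ± 0.22 (SD, n = 3 each) did not overlap between the times but missed the threshold (0.75, adjusted p = 0.053), and it passed with the replicate number as a block (adjusted p = 0.021). Egr1 (0.24, 0.45) and Ier3 (0.02, 0.95) did not pass. For Egr1 this rested on the scaling: its difference was 0.63 (adjusted p = 0.037) with median scaling over all probes and 0.64 (0.021) with the detected probes. Fos then passed too, at 0.87 (0.039) and 0.88 (0.022), while Fosb was at 0.91 (0.11) and 0.92 (0.076) and Jund at 0.33 (0.11 and 0.075). Ier2 went the other way without passing (-0.66, adjusted p = 0.085), and without array 3 at 36 h it passed (-0.93, 0.027). Fosb lost its call without array 1 (0.075), 2 (0.06) or 3 (0.14) at 6 h or array 2 at 36 h, where the difference was 0.57 (0.28), and Jund without any 1 of the 6 arrays (0.053 to 0.16), while Jun, Egr2 and Junb kept theirs.

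With indomethacin the members that passed were 6 in WSS culture, against 14.6% of all genes, and 5 in static culture, against 24.5%. Under WSS these were Fosb (1.93), Fos (1.66), Egr2 (1.35), Jun (1.14), Junb (1.08) and Egr1 (0.97, adjusted p = 0.005), and all 6 kept their calls without any 1 array. In static culture they were Egr2 (1.34), Jun (1.17), Fosb (1.16, adjusted p = 0.028), Fos (0.78, 0.046) and Junb (0.62). Egr1 was at 0.31 (0.31), but at 0.84 (0.0076) with median scaling over all probes, under which the median of all genes was 0.15, and at 0.67 (0.018) with the detected probes. In static culture 52.4% of all called genes were higher at 36 h, against 66.1% with median scaling over all probes and 67.1% with no scaling. Without array 1 at 36 h, the brightest of its group for Fos and Fosb, Fos was at 0.44 (0.28) and Fosb at 0.75 (0.18). Fos was also lost without static array 2 (0.12) or 3 (0.13) at 6 h or array 3 at 36 h (0.054), and Fosb without array 1 (0.082) or 2 (0.06) at 6 h. Marker sums moved with time as well. In WSS vehicle culture 7 of 7 erythroid genes were lower at 36 h, against 17.7% of all genes. Their sums were 12340 to 22710 at 36 h and 91860 to 118500 at 6 h. In static vehicle culture 6 of 7 mesenchymal genes were higher, against 26% of all genes. Their sums were 6587 to 7168 at 36 h and 3165 to 3467 at 6 h. The part of these cell types was not tested.

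**Figure D4:**
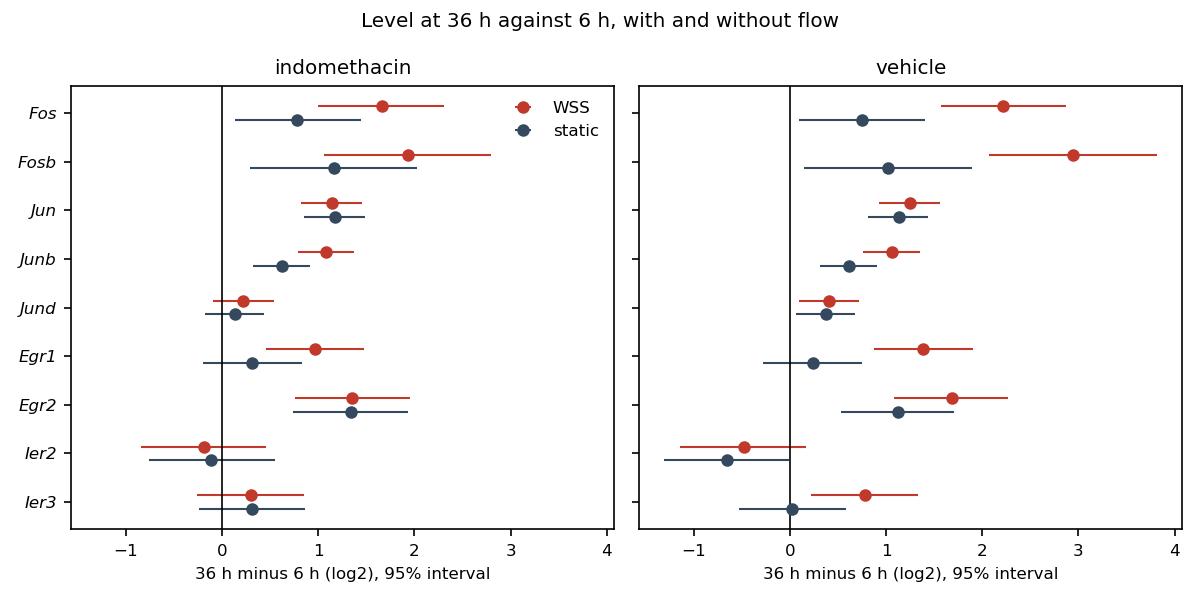
Difference in log2 signal between 36 h and 6 h for each gene, with 95% confidence intervals, in WSS (red) and static (dark blue) culture, with indomethacin at the left and vehicle at the right. In vehicle, Fos, Fosb and Egr1 rose by 2.22, 2.94 and 1.38 in WSS culture and differed by 0.75, 1.02 and 0.24 in static culture, while Jun (1.25 and 1.13) and Jund (0.41 and 0.37) had near-equal values in WSS and static culture.

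Across the 8 groups, the 2 WSS groups at 6 h held the lowest means for 8 of 9 members, Ier2 being the exception. The share of all genes with this order was not counted, so the count describes the members only. Jund is among the 8 by a narrow margin, with means of 7.64 in WSS and 7.66 in static vehicle culture at 6 h. For Fos the order ran from WSS vehicle at 36 h (12.14), static vehicle at 36 h (12.09), static indomethacin at 36 h (11.89) and WSS indomethacin at 36 h (11.53) to static vehicle at 6 h (11.34), static indomethacin at 6 h (11.10), WSS vehicle at 6 h (9.92) and WSS indomethacin at 6 h (9.87). Neighbours in that order overlapped, except for the step between static indomethacin and WSS vehicle at 6 h. Egr1 ran from 13.84 in static vehicle at 36 h to 12.43 in WSS vehicle at 6 h, and 6 of its 8 means lay between 13.40 and 13.84. Jun and Ier3 were arranged differently. Jun had its 4 groups at 36 h, at 10.32 to 10.84, above its 4 groups at 6 h, at 9.15 to 9.67, with static above WSS within each time. Ier3 had its 4 static groups, at 11.20 to 11.51, above its 4 WSS groups, at 9.63 to 10.40, whatever the time.

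The spread between arrays of a group differed among members. Pooled over the groups, the SD was 0.58 for Fosb, larger than for 99.6% of all genes, 0.43 for Fos and Ier2, 0.39 for Egr2, 0.36 for Ier3 and 0.33 for Egr1. It was 0.18 for Jun and Jund and 0.16 for Junb, in the tighter part of all genes (33.6, 31.7 and 23.8 percentile). A change of -0.44 in Jun passed in vehicle at 6 h and one of -1.03 in Fosb did not.

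A profile of the set was built as the mean of the members' group means, each scaled to a mean of 0 and an SD of 1 over the 8 groups. Each member was correlated with the same profile built from the other members alone. Junb and Egr2 followed that profile most closely (Pearson r = 0.97 each), then Fos (0.96), Egr1 (0.94), Jun (0.88), Jund (0.85), Fosb (0.79) and Ier3 (0.76). Ier2 did not (0.10). Among genes outside the set, the 5 most like the profile of all measured members were Camk2n1 (r = 0.991), Ensa (0.986), Prxl2a (0.985), C1qtnf4 (0.985) and Ntrk2 (0.984). Camk2n1, an inhibitor of the calcium kinase CaMKII, averaged 10.03 in WSS and 10.64 in static vehicle culture at 36 h, and 8.83 in WSS and 9.92 in static culture at 6 h. Ntrk2, the receptor for the neurotrophin BDNF, averaged 9.29 in WSS and 9.87 in static culture at 36 h, and 8.27 in WSS and 9.21 in static culture at 6 h. These correlations run over 8 group means of shared arrays, are picked from 12226 genes and carry no test.

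Other genes of the pathway were taken from lists written with earlier results of these data known, and are described by counts. Of 42 other immediate early genes 35 were tested, and 18 were lower and none higher in WSS vehicle culture at 6 h, with a median of -0.56, against 14.3% of all genes called lower and a median of 0.01. The largest were Gadd45b, a stress-induced partner of MAP kinase kinases (-1.51 ± 0.19, adjusted p = 8.3e-06), Nfkbiz, a nuclear regulator of NF-kB targets (-1.21 ± 0.27, 0.0024), Ccn1, a secreted matrix protein (-1.16 ± 0.20, 0.00026), and Cebpb, a transcription factor of acute responses (-1.12 ± 0.22, 0.00073). At 36 h in vehicle 3 of the 35 were lower, a count near the 4.72% of all genes, with a median of -0.17. With indomethacin 11 were lower at 36 h, against 5.78% of all genes, and 13 at 6 h, against 8.34%. Without the WSS indomethacin array that was low in erythroid genes the 13 became 7. Over both drug states 8 of the 35 had a flow effect that was higher at 36 h than at 6 h, against 11.8% of all genes: Klf4, Ccn1, Zfp36, Gadd45b, Trib1, Phlda1, Plk3 and Cebpb. Without that array the 8 became 5. The count of 18 was 11 without static array 3, 10 without WSS array 2, 5 with median scaling over all probes and 3 without scaling.

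Of the AP-1 partners 3 of 8 tested were lower in WSS vehicle culture at 6 h, against 14.3% of all genes, with a median of -0.24: Mafg (-0.73 ± 0.14, adjusted p = 0.00071), Atf3 (-0.69 ± 0.25, 0.044) and Maff (-0.60 ± 0.20, 0.03). Egr3 (-0.94 ± 0.32, adjusted p = 0.032) was the only one of 4 Egr relatives and co-repressors to pass, and Egr4, at -0.79, did not (0.16). Atf3 lost its call without any 1 of the 6 arrays (up to 0.14), and Maff did so without any of 5 of them, static array 2 excepted (up to 0.085). Egr3 was lost when WSS array 2 or 3 or static array 1 or 3 was left out (up to 0.13). Of 6 listed serum response and ternary complex factors 2 were tested, and neither passed: Elk3, a ternary complex factor, was at 0.22 (adjusted p = 0.28) and Srf at 0.07 (0.69).

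Of 12 upstream kinases tested 2 were higher and 2 lower, near the 15.1% and 14.3% of all genes called higher and lower, and 8 did not pass. Map2k1, which encodes MEK1, was lower (-1.09 ± 0.19, adjusted p = 0.00026), as was Rps6ka3, which encodes the ERK target RSK2 (-0.99 ± 0.19, 0.00056). Map2k3, an activator of p38, was higher (0.54 ± 0.12, 0.0021), and so was Map2k2, which encodes MEK2 (0.36 ± 0.13, 0.039). Among the phosphatases that switch MAP kinases off 2 of 8 were lower, against 14.3% of all genes: Dusp8 (-0.77 ± 0.23, 0.014) and Dusp6 (-0.45 ± 0.16, 0.04). Leaving out any array but WSS array 1 ended the call of Map2k2 (up to 0.16), leaving out WSS array 1 or 2 or static array 2 or 3 that of Dusp6 (up to 0.15), and leaving out WSS array 1 that of Dusp8 (0.051). Dusp6 was at 0.05 with no scaling between arrays.

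Of 13 tested genes known as AP-1 or Egr1 targets, 2 were higher, against 15.1% of all genes, and 4 lower, against 14.3%, with a median of 0.05. Pdgfb, a growth factor gene with a known Egr1 site, was lower (-1.26 ± 0.29, adjusted p = 0.003), and so was Plau, which encodes urokinase (-0.95 ± 0.25, 0.0064). Plaur, its receptor, was higher (1.06 ± 0.33, 0.019), as was Timp1, an inhibitor of matrix proteases (0.79 ± 0.22, 0.01). The call of Plaur ended without WSS array 1 or 2 or static array 1 or 2 (up to 0.075), and that of Timp1 without WSS array 1 (0.051).

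Heat shock genes were listed as a possible sign of handling stress, and whether they marked it here was not tested. Of 10 tested, Hspa1a (-2.90 ± 0.67, adjusted p = 0.0028) and Hspa1b (-2.19 ± 0.46, 0.0013) were lower in WSS vehicle culture at 6 h and the other 8 did not pass, with a list median of 0.24. Their flow effects over both drug states were higher at 36 h than at 6 h by 2.09 (adjusted p = 0.028) and 1.79 (0.0089). Hspa1a and Hspa1b are near-identical paralogs whose probes may share signal. In vehicle alone the difference between the times was 2.14 for Hspa1a (adjusted p = 0.14) and 1.53 for Hspa1b (0.13), and neither passed. Their part in the members' changes was not tested. Of the hypoxia genes, Pdk1, a kinase that limits pyruvate oxidation, was at -3.68 ± 0.38, Slc2a3, a glucose transporter, at -3.51 ± 0.24 and Egln3, an oxygen sensor, at -2.78 ± 0.26 at 6 h in vehicle. Car9, a carbonic anhydrase, was not well above background on the WSS arrays and was at least 9.74-fold lower there (adjusted p = 1.9e-10), taking the dimmest detected signal of each array as the bound.

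**Figure D5:**
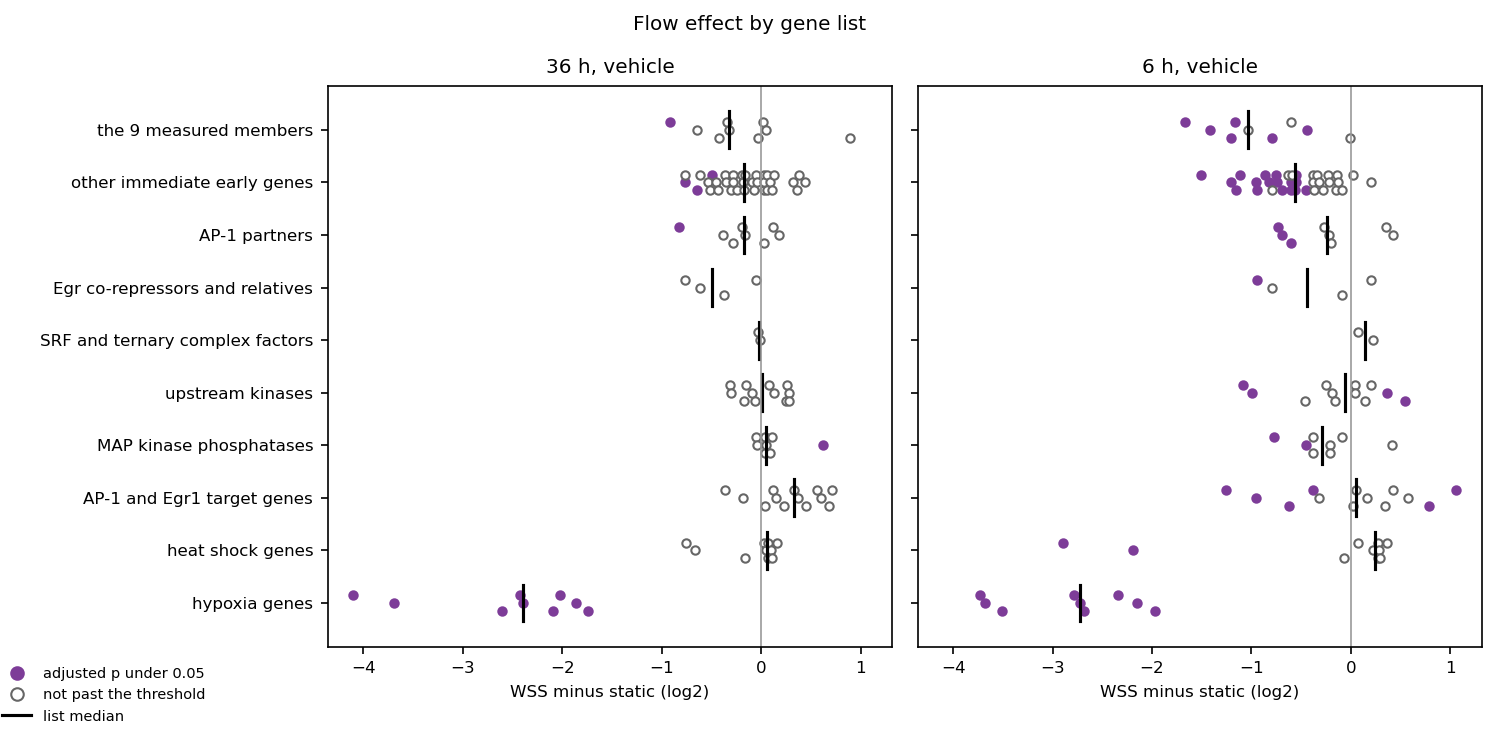
Change in log2 signal, WSS minus static in vehicle, at 36 h (left) and 6 h (right), for each tested gene of the measured members and 9 lists. Filled points passed an adjusted p under 0.05, open points did not, and bars are list medians; the members' median was -0.32 at 36 h and -1.03 at 6 h, that of other immediate early genes -0.17 and -0.56, and that of hypoxia genes -2.39 and -2.72.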

How the data were processed

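Gene expression was measured on 24 Illumina mouse bead arrays, 3 in each of 8 groups. Per the labels' protocols, RNA was amplified into biotin-labelled cRNA with a MessageAmp kit (Ambion). The table used holds non-normalised bead intensities and a detection p-value for each of 45281 probes and each array, as deposited by the authors. Which software exported them was not given in the sources used. The authors' processed intensities, also deposited, are linear, have some values below 0 and near-identical array medians (11.6 to 11.7). They were set to at least 16, logged and used as an alternative.

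Intensities were background corrected (normexp, from the detection p-values), quantile normalised and logged with an offset of 16 by neqc of limma 3.58.1 (R 4.3.3). The filter kept the 21251 probes detected (p under 0.05) throughout the 3 arrays of 1 group or more. Symbols came from the platform annotation, where 35784 probes had 1 symbol, 0 had several and 9497 had none; 937 symbols were updated through RefSeq. The brightest kept probe stood for a gene, which left 12226 genes. limma's lmFit and eBayes fitted 8 group means over all arrays, without covariates (16 residual and 21.4 total degrees of freedom), and gave 17 comparisons with 2-sided p-values and Benjamini-Hochberg adjustment over all genes in each. Errors after ± are standard errors unless marked SD. An exact permutation test of 3 against 3 arrays cannot go below 0.1 and was not used. Marker sums add linear normalised signals less the offset.

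The members and lists were chosen with earlier results of these data known. Named genes were all members, up to 4 passing genes with the largest change in vehicle at 6 h from each list (where fewer than 2 passed, the 2 with the smallest p), and the 5 genes most like the members' profile; others are given for a call that a setting changed. Bead counts and slides were not used here, so that the number of arrays limits the precision. Gene values were simulated for 12226 genes. Log2 changes of 0.5, 1 and 2 were put into 67, 67 and 66 of them in the WSS vehicle group at 6 h. The flow comparison in vehicle at 6 h recovered 23.9%, 80.6% and 98.5% of these, and 6 of 141 calls were of unchanged genes. The difference between times in vehicle recovered 13.4%, 64.2% and 95.5%. Far fewer genes changed there than were called in the data, and normalisation was not simulated, so these rates need not hold for the data. Alternatives changed the background correction, offset, scaling, value table, filter, probe rule, arrays in the fit, weights, variance model and replicate block, and left out each array. Figures were drawn with matplotlib 3.10.9 (Python 3.11.15).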

Additional observations from a re-analysis of the deposited data

Results flagged for a closer look

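The effect of flow differed between 36 h and 6 h for several members by a test of the difference itself. In vehicle the effect at 36 h exceeded that at 6 h by 1.92 for Fosb, 1.47 for Fos and 1.15 for Egr1 on the log2 scale. Over both drug states it did so by 1.35 for Fosb, 1.17 for Fos, 0.90 for Egr1 and 0.46 for Junb. The calls over both drug states were kept when any 1 array was left out, and those in vehicle alone were not. Scaling to the median of all probes kept Fosb alone, over both drug states. The heat shock genes Hspa1a and Hspa1b differed between the times in the same direction, by 2.09 and 1.79 over both drug states. In vehicle alone neither passed (adjusted p = 0.14 and 0.13), and their part was not tested.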

How the results depend on the processing

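Over all 17 comparisons, 3084 of 3276 member values under the alternatives stayed on their side of the threshold. A call was lost by 156 and gained by 35, and 1 called value and 153 uncalled values turned their sign. Most of the 3276 belong to results that were not called as reported, among them all those of the drug comparisons. The share that stayed thus does not measure how stable the calls were. Scaling mattered most. Median scaling over all probes left 0 members called in the flow comparison at 36 h in vehicle, 1 at 6 h and 1 at 36 h with indomethacin, 0 in the difference between times in vehicle and 1 over both drug states. No scaling between arrays, chosen after seeing the data, left 2 at 6 h and 0 at 36 h in vehicle, 1 at 6 h and 1 at 36 h with indomethacin, 0 in the difference between times in vehicle, 1 over both drug states and 3 for time in static vehicle culture, and Jun (0.02) and Dusp6 (0.05) turned their sign at 6 h in vehicle. Scaling to probes detected on all 24 arrays, also chosen after seeing the data, left 1 in the difference between times in vehicle. Without a filter on dim probes the counts were 0 for flow at 36 h in vehicle, 0 for the difference between times in vehicle, and 3 each for time in static culture with vehicle and indomethacin. Fitting only the arrays compared gave 0 for flow at 36 h in vehicle and 1 with indomethacin, and a trended, robust variance gave 3 for time in static vehicle culture. Without single arrays the counts ran from 5 to 5 for flow at 6 h in vehicle, 0 to 3 at 36 h in vehicle, 2 to 6 at 6 h and 1 to 3 at 36 h with indomethacin, 0 to 3 for the difference between times in vehicle and 4 to 4 over both drug states, 3 to 5 for time in static vehicle and 3 to 5 in static indomethacin culture, and 6 to 7 in WSS vehicle culture. Over all genes, median scaling called 2066 for flow at 36 h in vehicle (1147 as reported), 4575 at 6 h with indomethacin (2175) and 680 in the difference between times in vehicle (1437). No scaling called 2153, 4420 and 251 there, 765 for flow at 36 h with indomethacin (1325), 108 for the difference between times with indomethacin (356) and 1827 over both drug states (2855). Fitting only the arrays compared called 123 and 710 at 36 h with vehicle and indomethacin, and 948 in the difference between times in vehicle. Array weights called 4881 for flow at 6 h and 1092 in the difference between times with indomethacin. The causes of these moves were not tested. Whether arrays of the same replicate number shared a culture or a batch was not tested. In their deviations from the group means 26 of 84 same-number pairs correlated over 0.1 (median 0.036, highest 0.361). Of 24 arrays 12 correlated best with their own number. In every group at 36 h the erythroid sum and the mean signal before normalisation fell from array 1 to 2 to 3. With indomethacin in static culture the sums were 35390, 28220 and 11080, and the mean signals 569.3, 447.8 and 435.1. At 6 h only static vehicle culture showed this order. The replicate block changed 1 member call, Fos for time in static vehicle culture (0.75, adjusted p = 0.021). A slide block was not run, as the headers name no slide.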

Other observations

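Junb read lower with indomethacin in each of the 4 drug comparisons, by amounts that did not pass the adjusted test. In static culture at 36 h it read 9.33, 9.43 and 9.79 with indomethacin and 9.72, 9.60 and 10.11 with vehicle. The change was -0.30, within an interval of -0.59 to 0.00. Under the alternatives run, the adjusted p for Junb in these comparisons did not go below 0.081, and its changes ran from -0.45 to -0.14. The 4 comparisons share no arrays, but they share the normalisation and 1 fit with a common variance per gene. Junb was picked out from these same values, so they are a description and not a repeat test.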
